A study of Mus musculus with 8 samples.

Results

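The Dlk1-Meg3 cluster of distal mouse chromosome 12 was followed through its 5 long transcripts, Dlk1, Rtl1, Meg3, Rian and Mirg, in brown adipose tissue (BAT). All 5 were found among the 49452 genes of the expression table. The symbol column of the table named 2 of them (Dlk1 and Rtl1), and the other 3 were found through their Ensembl identifiers. RNA-Seq had been done on BAT of male C57BL/6 mice in 8 libraries, to find transcripts that go with BAT function. In one experiment a cold group, held at 4 °C over 24 h (libraries numbered 2 and 11), was set against a group at 22 °C (numbers 4 and 7). In the other, a high-fat diet (HFD; numbers 2 and 6) was set against a control diet (CD; numbers 6 and 8). The sample labels call the CD animals normal chow fed, whereas the study describes a micronutrient-matched control diet, and which was fed is not settled here. According to the methods the cold-exposed animals were fasted for the last hours. The animals of the diet experiment were older than those of the cold experiment, so no test was made between the CD and 22 °C groups.

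Imprinted genes are expressed from 1 parental copy. In this cluster the paternal chromosome makes the protein-coding genes Dlk1, Rtl1 and Dio3, and the maternal chromosome makes the non-coding RNAs Meg3, Rian and Mirg, all read in the same direction and thought to form a long transcription unit. Differential methylation between Dlk1 and Meg3 sets which chromosome makes which set. Dlk1, also known as Pref-1, is a membrane protein related to the Notch ligands that holds back adipocyte differentiation, and both Dlk1 and Meg3 are known for high expression in embryonic tissue and a fall after birth. Alleles were not separated in these data, so every level below is the sum over both chromosomes.

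The sequence just before the start of Meg3 is shown because the levels of the maternal RNAs are the main readout below. It was taken from the RefSeq promoter table on GRCm38.p6 and runs from 250 bases before to 50 bases after the start, chr12:109540746-109541045 on the plus strand. Capitals mark a TGACGTCA motif (a cAMP response element) that begins at base -57 and a TATATAA motif (TATA box) that was found on both strands, overlapping, from base -28. A CCAAT motif began at base -100.
Meg3 promoter: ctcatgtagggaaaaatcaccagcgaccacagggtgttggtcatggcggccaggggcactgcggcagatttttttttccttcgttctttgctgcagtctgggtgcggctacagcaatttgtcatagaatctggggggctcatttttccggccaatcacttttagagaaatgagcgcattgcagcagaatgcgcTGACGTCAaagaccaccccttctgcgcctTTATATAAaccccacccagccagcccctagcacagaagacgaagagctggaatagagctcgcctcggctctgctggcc
TGACGTCA, searched on both strands, was present in 1.79% of the 32817 promoters of that table, TATATAA in 3.25% and CCAAT in 37.4%. A second RefSeq start of Meg3, with its window at chr12:109545148-109545447, held none of the 3 motifs. The Dlk1 window, chr12:109452573-109452872 on the plus strand, is shown for comparison and held none of these letters either. The Rian window had none of them, and the Mirg window had a CCAAT alone, from base -184.
Dlk1 promoter: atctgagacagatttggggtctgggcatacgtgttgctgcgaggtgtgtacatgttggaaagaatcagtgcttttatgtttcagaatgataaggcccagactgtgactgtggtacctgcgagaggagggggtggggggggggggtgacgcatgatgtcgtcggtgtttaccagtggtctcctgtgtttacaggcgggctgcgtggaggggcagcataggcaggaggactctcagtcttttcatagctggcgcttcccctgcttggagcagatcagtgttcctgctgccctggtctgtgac
These matches describe the sequence alone, since no binding or methylation was measured.

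Between Dlk1 and Dio3 the RefSeq table placed 114 entries of mature miRNAs from 58 hairpins. Of the mature miRNAs, 26 lay inside Mirg, 6 inside Rian and 3 inside Meg3 on the same strand, 11 lay opposite Rtl1, where a maternal antisense transcript carries them, 2 lay on the strand of Rtl1, and the other 66 lay outside the 5 genes. A miRNA recognises its targets mainly through its seed, bases 2 to 8, and 10 seeds each occurred in 2 of the 114 entries. Among these pairs is miR-3070-5p itself, listed with the same letters at the hairpins Mir3070a and Mir3070b. The pairs that include a miRNA inside Mirg or Rian are shown, with the seed in capitals, because at least 1 of each pair lies inside an RNA measured here. miR-453 and miR-496a-5p, both inside Mirg, shared a seed, miR-410-5p of Mirg shared one with miR-494-5p, and miR-370-5p of Rian shared one with miR-1193-3p.
miR-453: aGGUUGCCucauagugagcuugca
miR-496a-5p: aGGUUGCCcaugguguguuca
miR-410-5p: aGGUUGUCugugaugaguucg
miR-494-5p: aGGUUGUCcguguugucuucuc
miR-370-5p: cAGGUCACgucucugcaguu
miR-1193-3p: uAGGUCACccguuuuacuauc
The mature miRNAs themselves were not measured in these libraries.

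Read per length, Rian was the most abundant transcript of the cluster in 8 of 8 libraries and Meg3 came next in 8 of 8. Levels are FPKM (fragments per kilobase of transcript, scaled to the mapped fragments of the library) as the authors deposited them. Rian was higher than 88.1% to 94.5% of all autosomal genes of the table, those at 0 included, depending on the library. Meg3 was higher than 77.3% to 87.2% of them. Mirg and Dlk1 followed at under 1.5 FPKM, with Mirg above Dlk1 in every library other than CD replicate 6. Rtl1 was the lowest of the 5 in 8 of 8 libraries. Rtl1 was under 0.1 FPKM in 6 libraries, which the rule used here counts as too low to read, so its values below are given as a description, whereas none of the other 4 was under 0.1 FPKM in any library.

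**Figure D1:**
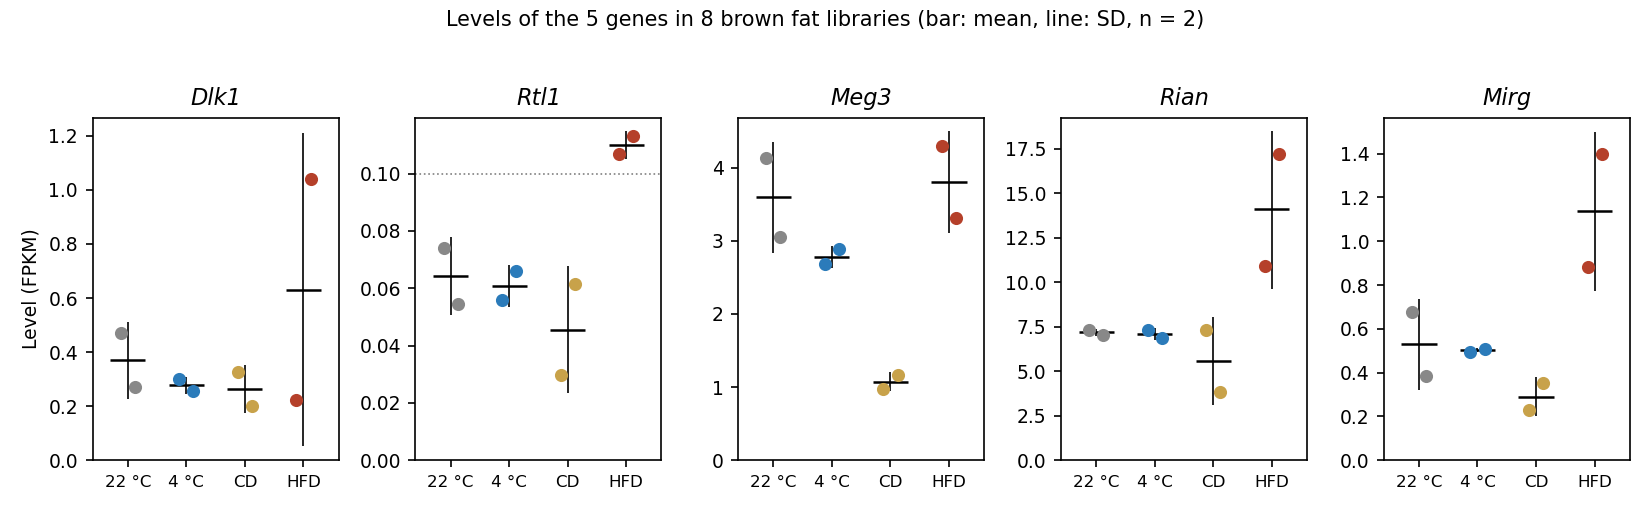
Level of each gene in FPKM (y axes differ, each from 0) in the 2 libraries of each group, with the group mean as a bar and the SD as a line (n = 2). The dotted line in the Rtl1 panel is 0.1 FPKM. Meg3 lies near 1 FPKM in both CD libraries and between 2.68 and 4.30 FPKM in the other 6.

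The maternal RNAs were compared first between HFD and CD, which asks how long-term overnutrition goes with expression in BAT. Meg3, Rian and Mirg all lay higher in both HFD libraries than in both CD libraries, by 3.56-fold, 2.52-fold and 3.93-fold in the group means. None of them passed the test across all genes. Each log2 difference below is on the log2(FPKM + 1) scale, which understates the change of low genes, and its p-value is from limma with Benjamini-Hochberg adjustment over the 17543 genes tested. A call needed an adjusted p under 0.05 and a log2 difference of at least 1. A gene under 1 FPKM in every library of a comparison could not be called, since its log2(FPKM + 1) stays under 1. The labels do not say that the 2 samples of a group came from separate animals, so p-values measure the spread between these samples only.

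Meg3 (ENSMUSG00000021268, chr12:109541001-109571726 on GRCm38, plus strand) is a long non-coding RNA that has been tied to p53 signalling and to Polycomb recruitment. Meg3 was at 0.979 FPKM in CD replicate 6 and at 1.16 FPKM in CD replicate 8. Under HFD it was at 4.30 FPKM in replicate 2 and 3.32 FPKM in replicate 6. The CD pair was thus narrow and far below the HFD pair, and the smallest ratio of an HFD to a CD library was 2.86. The means were 1.07 ± 0.128 FPKM under CD and 3.81 ± 0.698 FPKM under HFD (SD, n = 2 each). The log2 difference was 1.21 (SE 0.26, 95% interval 0.592 to 1.83), with an adjusted p of 0.151 in limma. Over the alternative settings of the fit this adjusted p ran from 0.00712 to 0.528, and the difference kept its sign in all of them.

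Rian (ENSMUSG00000097451, chr12:109603940-109661716, plus strand) is the host transcript of a large array of C/D box small nucleolar RNAs. Rian was at 7.34 FPKM in CD replicate 6 and at 3.83 FPKM in CD replicate 8. Under HFD it was at 10.9 FPKM in replicate 2 and 17.2 FPKM in replicate 6. The groups did not overlap, but the CD libraries differed so much from each other that the smallest HFD to CD ratio was 1.49 and the largest was 4.50. The means were 5.58 ± 2.49 FPKM and 14.1 ± 4.44 FPKM (SD, n = 2 each). The log2 difference of 1.22 (SE 0.41, 95% interval 0.248 to 2.18) had an adjusted p of 0.253 in limma. Without CD replicate 6 the log2 difference of Rian was 1.61 with an adjusted p of 0.0266, which is a call that rests on 1 CD library, assumed to vary as the HFD pair did, in a fit that called 726 of 17188 genes, and without HFD replicate 6 it was 0.911 with an adjusted p of 1.0.

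Mirg (ENSMUSG00000097391, chr12:109729764-109749460, plus strand) is the host of the most distal miRNA group of the cluster. Mirg was at 0.227 FPKM in CD replicate 6 and at 0.353 FPKM in CD replicate 8. Under HFD it was at 0.881 FPKM in replicate 2 and 1.40 FPKM in replicate 6. Both HFD values were at least 2.50 times either CD value. The means were 0.290 ± 0.0892 FPKM and 1.14 ± 0.365 FPKM (SD, n = 2 each). The log2 difference was 0.72 (SE 0.17, 95% interval 0.326 to 1.12), with an adjusted p of 0.163 in limma.

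The paternal genes were at lower levels. Dlk1 (ENSMUSG00000040856, chr12:109452823-109463336, plus strand) was at 0.326 and 0.200 FPKM in CD replicates 6 and 8, and at 0.223 and 1.04 FPKM in HFD replicates 2 and 6. The groups overlapped, and the HFD mean of 0.631 ± 0.578 FPKM (SD, n = 2) rested on replicate 6. The log2 difference of Dlk1 was 0.32 (SE 0.22, 95% interval -0.196 to 0.844), with an adjusted p of 0.559 in limma, and without HFD replicate 6 it was -0.05. Rtl1 (ENSMUSG00000085925, chr12:109589194-109600330, minus strand) encodes a retrotransposon-derived protein of placenta and muscle. Its levels were 0.0298 and 0.0614 FPKM in CD replicates 6 and 8, and 0.107 and 0.113 FPKM in HFD replicates 2 and 6. Values of low single-exon genes came in whole steps for 97.7% to 98.6% of them (within 0.1 of a fragment), and by that step the Rtl1 levels stood for about 21.9 to 66.4 fragments a library over all 8. The ratio of the Rtl1 means was 2.41. The log2 difference of Rtl1 depended on the pseudocount, at 0.09 with 1 FPKM (adjusted p 0.574 in limma), 0.537 with 0.1 (adjusted p 0.517) and 1.17 with 0.01 (adjusted p 0.543). A maternal transcript runs antisense through Rtl1, and since the use of strand in the authors' quantification is not stated, reads of the 2 cannot be told apart.

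Of the 5 genes, 4 (Meg3, Rian, Mirg and Rtl1) had both HFD libraries above both CD libraries, and 39.9% of all genes tested did. None of the 5 had both HFD libraries below both CD libraries, against 5.8% of all genes. Rtl1 entered the test only through its HFD libraries, so its place in that count was fixed by the filter on low values. By limma, 0 of the 5 were called, against 0.0684% of all genes (12 of 17543), while 3 of the 5 (Meg3, Mirg and Rian) had an unadjusted p under 0.05, as 2532 of all genes did. Rtl1, under 1 FPKM in every library, could not have been called on the log2(FPKM + 1) scale. The median log2 difference of the 5 was 0.72, and that of all genes tested was 0.18. Among genes that averaged 1 FPKM or more the median of the table was shifted by 0.29 as deposited and by -0.06 after median centring. After that centring the log2 differences were 0.86 for both Meg3 and Rian and 0.37 for Mirg, with adjusted p of 0.257, 0.275 and 0.740 in limma.

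**Figure D2:**
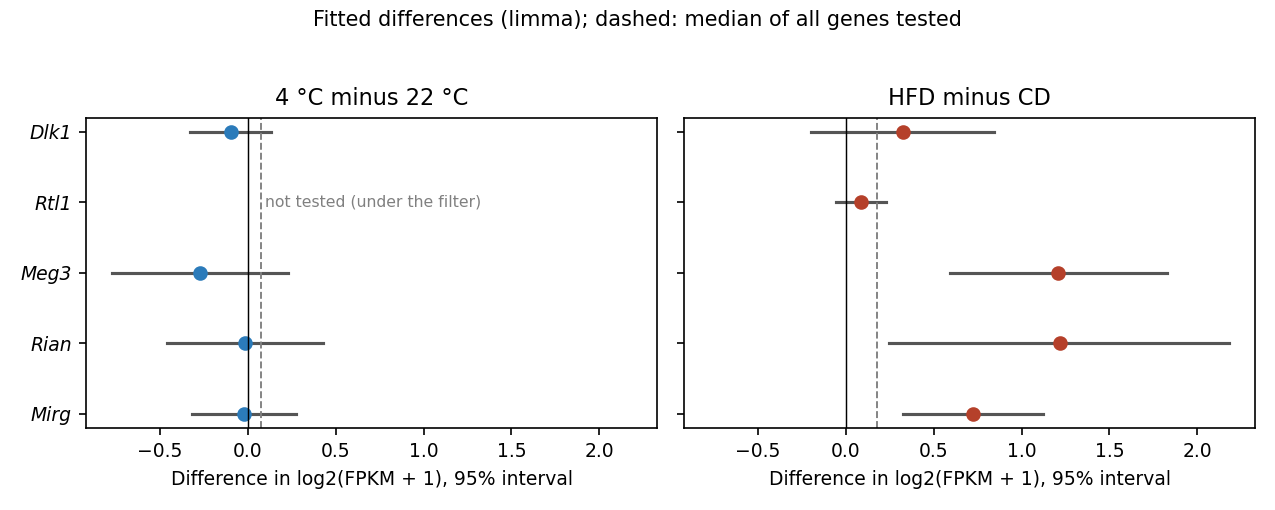
Difference in log2(FPKM + 1) of each gene with its 95% interval from limma, 4 °C minus 22 °C on the left and HFD minus CD on the right (n = 2 libraries a group). Dashed lines are the medians of all genes tested, 0.07 and 0.18. Meg3, Rian and Mirg lie to the right of 0 and of the dashed line in the diet panel, with intervals that begin at 0.592, 0.248 and 0.326, whereas all 4 intervals of the cold panel span 0.

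The libraries differed in ways the groups do not explain. A satellite-like transcript, Gm10800, was above 100 FPKM in HFD replicate 2, CD replicate 8, 4 °C replicate 11 and 22 °C replicate 4, and below it in the other library of each group. Within the pair with the high level the HFD minus CD log2 difference was 1.30 for Meg3, 1.31 for Rian and 0.48 for Mirg. Within the pair with the low level it was 1.13, 1.13 and 0.97. The shared direction follows from the groups not overlapping and is no further support. With that library type as a covariate Meg3 (log2 difference 1.21, adjusted p 0.00712 in limma) and Rian (1.22, adjusted p 0.00841) were called, while Mirg (0.72, adjusted p 0.0185) stayed under the fold threshold. 745 of 17543 genes were called in that fit. Its covariate was defined from these same libraries and left fewer degrees of freedom than the main fit. The 8 library labels also carry 2 kinds of run-like prefix, with CD replicate 8 and both HFD libraries sharing one and the other 5 libraries, with all 4 of the cold experiment, sharing the other. What the prefix marks is not stated, and the diet fit without CD replicate 6 is the one within 1 prefix. In that fit the log2 difference was 1.15 for Meg3 (adjusted p 0.0755 in limma) and 0.65 for Mirg (adjusted p 0.0784). In 3 libraries (both at 22 °C and CD replicate 6) all genes of the X chromosome were listed at 0, so a 0 in this table need not be a measured absence, and X-linked genes were not tested.

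Most markers of macrophages, precursors and stroma, and muscle fibres did not overlap between the diet groups, but none of them was called. The defining brown fat gene Ucp1 was at 699 to 6460 FPKM in the 8 libraries. All 7 macrophage markers lay higher in both HFD libraries (summed level 197 and 252 FPKM) than in both CD libraries (110 and 38.7 FPKM), as 39.9% of all genes tested did, with Cd68 and Trem2 at log2 differences of 2.46 and 2.27 (adjusted p 0.151 and 0.139 in limma). Of 17 markers of adipocyte precursors and stroma tested, 13 did so (again beside 39.9% of all genes), with summed levels of 320 and 272 FPKM under HFD against 114 and 97.7 FPKM under CD. The largest differences of that list were those of Dpt (2.31, adjusted p 0.127) and Col3a1 (2.1, adjusted p 0.163). Of 12 skeletal muscle fibre markers, 11 lay lower in both HFD libraries (summed level 221 and 41.0 FPKM) than in both CD libraries (652 and 1680 FPKM), as 5.8% of all genes tested did, led by Tnnt3 (-3.93, adjusted p 0.170) and Ckm (-3.91, adjusted p 0.158). None of these 3 lists had a member at 0 in any library. In bulk tissue fewer cells of a type and less RNA per cell cannot be told apart, and the part of macrophages and stroma in the Meg3, Rian and Mirg values was not tested. For muscle, a fit of all 8 libraries with the mean muscle marker level as a covariate gave log2 HFD minus CD differences of 1.58 for Meg3 (adjusted p 0.261 in limma), 0.60 for Rian (adjusted p 0.713) and 0.69 for Mirg (adjusted p 0.410). That fit called 1 of 17543 genes. The mean muscle marker level was itself lower in both HFD libraries (3.91 and 1.42) than in both CD libraries (5.22 and 6.69), so muscle and diet cannot be told apart. The remaining marker lists had median log2 HFD minus CD differences of 0.18 for mature adipocytes (8 genes tested), 0.60 for endothelium (7) and 0.03 for satellite cells and myoblasts (3). Their 2 largest differences were those of Cidea (-1.07) and Plin1 (0.45), Pecam1 (0.74) and Cldn5 (0.72), and Vcam1 (1.01) and Myog (-0.19), none of them called. Of glial markers, S100b was at 68.6 and 22.7 FPKM under CD and at 57.2 and 89.7 FPKM under HFD, overlapping, with a log2 difference of 0.84 (adjusted p 0.585 in limma), and Ngfr overlapped as well with a log2 difference of -0.02. The satellite cell gene Pax7 was listed at 0 in 3 libraries.

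Cold exposure was compared next, which asks what goes with acute BAT activation. None of the 4 genes tested was called. Rian was at 7.33 and 7.03 FPKM in 22 °C replicates 4 and 7, and at 7.34 and 6.86 FPKM in 4 °C replicates 2 and 11. These 4 values, with CD replicate 6 at the same level, were close together and the groups overlapped. The log2 difference of Rian was -0.02 (SE 0.18, 95% interval -0.458 to 0.428, adjusted p 0.970 in limma).

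Meg3 was at 4.14 and 3.05 FPKM at 22 °C (replicates 4 and 7) and at 2.68 and 2.89 FPKM at 4 °C (replicates 2 and 11). Both cold libraries were below both 22 °C libraries, with a ratio of the means of 0.774. The log2 difference of -0.27 (SE 0.20, 95% interval -0.772 to 0.230) had an adjusted p of 0.447 in limma. Without 22 °C replicate 4 it was -0.10, after median centring -0.53 (adjusted p 0.168) and after rescaling to the autosomal sum -0.60 (adjusted p 0.656). Mirg was at 0.677 and 0.383 FPKM at 22 °C and at 0.495 and 0.509 FPKM at 4 °C, so that the cold pair lay between the 22 °C pair. The log2 difference of Mirg was -0.02 (SE 0.12, 95% interval -0.316 to 0.275, adjusted p 0.934 in limma).

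Dlk1 was at 0.469 and 0.269 FPKM at 22 °C and at 0.299 and 0.255 FPKM at 4 °C, and the groups overlapped. Its log2 difference was -0.10 (SE 0.09, 95% interval -0.328 to 0.134, adjusted p 0.556 in limma). Rtl1 was at 0.0740 and 0.0546 FPKM at 22 °C and at 0.0558 and 0.0660 FPKM at 4 °C, which is under the filter, and it was not tested. Of the 4 genes tested, 0 were called by limma and 0 had an unadjusted p under 0.05, against 1.44% called over all genes (252 of 17477, with 4280 at an unadjusted p under 0.05). Dlk1 and Mirg, under 1 FPKM in every library of this comparison, could not have been called on the log2(FPKM + 1) scale. Meg3 alone had both cold libraries below both controls, as 20.6% of all genes did, and none of the 4 had both above, as 37.9% did. The scaling moved these differences: after median centring they were -0.273 for Rian, -0.278 for Mirg and -0.355 for Dlk1 (adjusted p 0.283, 0.337 and 0.228 in limma), and with libraries scaled by autosomal sum -0.388, -0.182 and -0.235 (adjusted p 0.833, 0.844 and 0.629). The intervals do not show that the levels were equal. For Rian and Mirg, as deposited, they leave room for differences of up to 0.458 and 0.316 in size on the log2(FPKM + 1) scale. At the low level of Mirg that scale understates the fold change, so its smaller bound need not be a tighter one.

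Some markers of other cell types lay apart between the cold groups too, with S100b the only call among those named here. All 12 skeletal muscle fibre markers lay higher in both 4 °C libraries (summed level 4910 and 2170 FPKM) than in both 22 °C libraries (636 and 153 FPKM), as 37.9% of all genes tested did, with a median log2 difference of 3.34 and none called, led by Atp2a1 (3.69, adjusted p 0.0702 in limma) and Tnni2 (3.64, adjusted p 0.0835). With the mean muscle marker level as a covariate the log2 cold difference of Rian was 0.58, that of Dlk1 0.28, that of Mirg 0.01 and that of Meg3 -0.63 (adjusted p 0.383 for Meg3). Of the glial markers, S100b rose by 1.41 (log2, adjusted p 0.0442 in limma), from 7.66 and 7.95 FPKM at 22 °C to 23.3 and 21.4 FPKM at 4 °C. Without 4 °C replicate 2 this call was lost (adjusted p 0.119), as it was without 22 °C replicate 4 (adjusted p 0.0922). Ngfr, another glial marker, lay lower in both 4 °C libraries, with a log2 difference of -0.28 (adjusted p 0.0717). The part of such cells in the cold values was not tested. The other lists held no call, with median log2 differences of 0.18 for mature adipocytes, 0.59 for endothelium, 0.48 for satellite cells and myoblasts, 0.28 for macrophages and -0.05 for precursors and stroma. Of the 8 mature adipocyte markers 5 had both cold libraries above and 3 both below (37.9% and 20.6% of all genes), among the latter Adipoq (-0.78). The largest in each were Ucp1 (2.56) and Fabp4 (1.0), Cldn5 (0.91) and Emcn (0.69), Vcam1 (0.66) and Myog (0.48), Itgam (0.53) and Mrc1 (0.50), and Col3a1 (-1.13) and Lum (-0.84).

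Set side by side, the group means of Meg3 put CD apart as the low group. Meg3 averaged 1.07 ± 0.128 FPKM under CD and 3.81 ± 0.698 FPKM under HFD. It averaged 3.6 ± 0.768 FPKM at 22 °C and 2.78 ± 0.15 FPKM at 4 °C (SD, n = 2 each). The HFD mean was 1.06 times the 22 °C mean and the CD mean was 0.297 times it, but rescaling each library to its autosomal sum put Meg3 at 5.02 FPKM at 22 °C, 2.97 at 4 °C, 1.1 under CD and 3.47 under HFD, with 22 °C in place of HFD as the highest group. The ranges at 22 °C and under HFD overlapped, those at 22 °C and 4 °C lay next to each other, and CD stood below all. Rian had another order, with HFD highest at 14.1 FPKM, 22 °C and 4 °C at 7.18 ± 0.215 and 7.10 ± 0.342 FPKM, and CD at 5.58 FPKM with a range that overlapped theirs. After the rescaling Rian was at 12.1 FPKM under HFD, 9.83 at 22 °C, 7.41 at 4 °C and 5.21 under CD. Mirg was highest under HFD (1.14 FPKM), at 0.530 ± 0.208 and 0.502 ± 0.0099 FPKM at 22 °C and 4 °C (overlapping, and at 0.755 and 0.531 after that rescaling) and lowest under CD (0.290 FPKM). Dlk1 averaged 0.263 ± 0.0894 FPKM under CD, 0.277 ± 0.0312 FPKM at 4 °C and 0.369 ± 0.141 FPKM at 22 °C, and the ranges of all 4 groups overlapped. After the rescaling Dlk1 was at 0.525 FPKM at 22 °C, above 0.502 under HFD. Rtl1 averaged between 0.0456 FPKM under CD and 0.110 FPKM under HFD.

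The 3 maternal RNAs did not keep a fixed ratio. The ratio of Rian to Meg3 within a library was 1.77 and 2.30 at 22 °C and 2.74 and 2.37 at 4 °C. It was 7.5 in CD replicate 6 and 3.30 in CD replicate 8, and 2.54 in HFD replicate 2 and 5.19 in HFD replicate 6. The ranges of this ratio under CD and HFD thus overlapped. The ratio of Rian to Mirg was between 10.8 and 18.3 in 7 libraries and 32.4 in CD replicate 6. The ratio of Meg3 to Mirg was 4.32 and 3.29 under CD, 4.89 and 2.38 under HFD, 6.11 and 7.97 in the 22 °C pair and 5.41 and 5.68 in the cold pair, so that all 4 libraries of the cold experiment lay above all 4 of the diet experiment. The RNAs differ in length and in the number of annotated transcripts (11 for Meg3, 20 for Rian and 12 for Mirg), which enter an FPKM value.

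**Figure D3:**
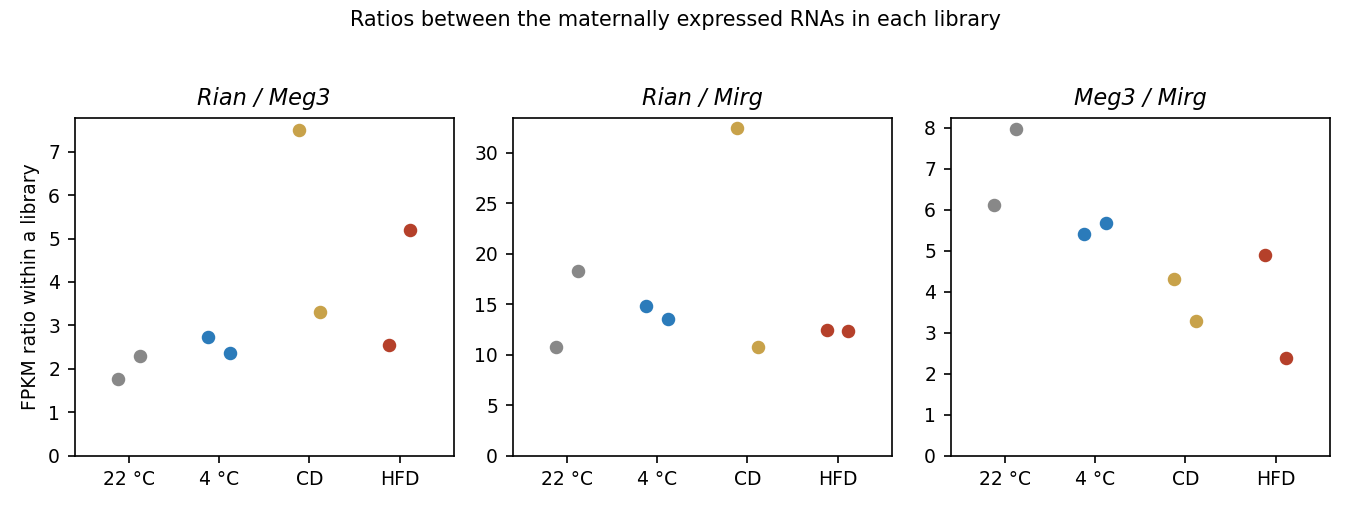
Ratio of FPKM within each library (y axes differ, each from 0) for Rian to Meg3, Rian to Mirg and Meg3 to Mirg, 2 libraries a group. CD replicate 6 stands apart at 7.5 in the first panel and 32.4 in the second.

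Over the 8 libraries Pearson's r of log2(FPKM + 1) between members was 0.56 for Meg3 and Rian, 0.68 for Meg3 and Mirg, 0.845 for Rian and Mirg and 0.945 for Rtl1 and Mirg. Dlk1 had 0.28 with Meg3 and 0.76 with both Rian and Mirg. The libraries share treatments and library types, so these values only describe the 8 libraries. Of 10861 genes averaging 1 FPKM or more, the 5 most like Meg3 were Cdc42ep1 (r = 0.971), Ptbp1 (0.968), Prkd2, Amotl2 and Kif13b (0.966 each). Cdc42ep1 was at 2.11 and 2.75 FPKM under CD and at 6.96 to 9.90 FPKM in the other 6 libraries, so that it was low under CD as Meg3 was. The 5 most like Rian were Mfap3 (0.995), Zfp281 (0.992), Nab2 (0.988), Ift43 (0.987) and Arrdc4 (0.985). Mfap3 was lowest in CD replicate 8 (2.23 FPKM) and highest in HFD replicate 6 (4.83 FPKM), as Rian was. No gene was on both lists.

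Most other annotated genes of the domain were listed at 0, which in a table of FPKM does not show that they were silent. Between Dlk1 and Dio3 the annotation placed 98 further genes, of which 91 were listed at 0 in all libraries. These included all 23 small nucleolar RNA rows, all 4 other small RNA rows and 64 of 67 miRNA hairpin rows, while Mir1197, Mir1193 and Gm27379 were above 0 in 1 library each. The 4 longer non-coding genes of the interval, Gm26906, Gm26945, Gm37899 and B830012L14Rik, were above 0 in 8 of 8 libraries. Gm26906 lies antisense over the 3′ end of Meg3 and was at 0.134 and 0.119 FPKM under CD and at 0.342 and 0.328 FPKM under HFD, 2.65-fold in the means. Gm26945 lies inside Rian and had a ratio of HFD to CD means of 1.66. Gm37899 and B830012L14Rik lie between Rian and Mirg and had ratios of 1.86 and 2.30. In all 4 both HFD libraries lay above both CD libraries (39.9% of all genes tested did), but the levels were at most 0.342 FPKM. Gm37899 and B830012L14Rik were under 0.1 FPKM in every library. By the rule used here they are too low to read, and they were not among the genes tested. Reads of the overlapping pairs cannot be told apart from those of Meg3 and Rian where strand and isoform assignment are not stated.

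Dio3, the deiodinase that inactivates thyroid hormone and the distal paternal gene of the domain, was at 0.50 FPKM in 4 °C replicate 11 and at 0.0637 FPKM or lower in the other 7 libraries. By the step above these levels stood for about 97.7 fragments in that library and 12 or fewer in the others, with CD replicate 6 listed at 0. The groups of both comparisons overlapped. Of the flanking genes, Wars (tryptophan tRNA ligase) was at 8.72 and 7.16 FPKM under CD and at 15.4 and 13.9 FPKM under HFD, a log2 difference of 0.81 (adjusted p 0.341 in limma). Yy1, a zinc finger factor, Degs2, a sphingolipid enzyme, and Ppp2r5c, a phosphatase subunit, also had both HFD libraries above both CD libraries, with ratios of the means of 1.37, 2.45 and 1.39. Begain, Slc25a29, Slc25a47 and Wdr25 overlapped between the diets, with ratios of 3.17, 1.34, 1.18 and 0.993. In the cold comparison Wars, Wdr25, Slc25a29, Degs2 and Ppp2r5c had both 4 °C libraries above both controls, and Begain and Slc25a47 had both below (37.9% and 20.6% of all genes tested did), with none called and the lowest adjusted p at 0.0845 for Wdr25 (log2 difference 0.53). Yy1 overlapped there, at 7.30 and 7.85 FPKM in the means.

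**Figure D4:**
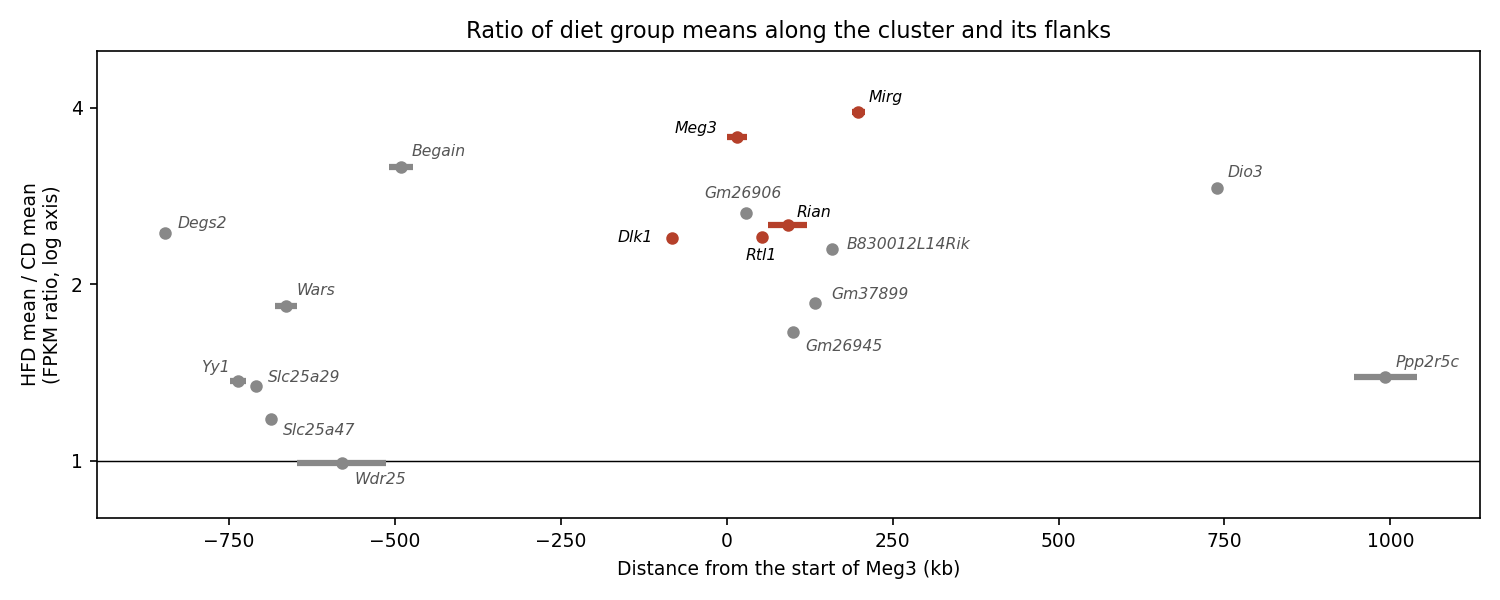
Ratio of the HFD mean to the CD mean in FPKM (log axis) against distance from the start of Meg3 in kb, for the 5 genes (red) and the annotated neighbours (grey). Lines span each gene and the horizontal line is a ratio of 1. The 5 genes have ratios from 2.40 (Dlk1) to 3.93 (Mirg), while the flanks range from 0.993 (Wdr25) to 3.17 (Begain).

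Gene lists place the cluster in its pathway and among other imprinted genes. Dlk1 lacks the domain by which the canonical ligands activate Notch, and of 20 Notch pathway genes tested 17 had both HFD libraries above both CD libraries, where 39.9% of all genes did. None was called (7 had an unadjusted p under 0.05 in limma, as 2532 of all 17543 genes did). Their median log2 difference was 0.50, beside 0.18 over all genes tested and 0.29 over those averaging 1 FPKM or more. The largest were those of Lfng (1.10, adjusted p 0.276), which glycosylates Notch, and Psen2 (0.91, adjusted p 0.313), of the gamma-secretase that cleaves it. In the cold 7 of 20 lay above and 5 below, near the 37.9% and 20.6% of all genes, none was called (5 with an unadjusted p under 0.05, as 4280 of all 17477 genes had), the median was 0.15, and the ligand Jag2 (0.86, adjusted p 0.0693) and the protease Adam17 (0.77, adjusted p 0.0867) led.

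Of 20 regulators of imprints and of the cluster, 12 had both HFD libraries above both CD libraries (39.9% of all genes did). Their median log2 difference was 0.38, beside 0.18 over all genes tested and 0.29 over those averaging 1 FPKM or more. None was called, against 0.0684% of all genes. An unadjusted p under 0.05 in limma was found for 5, as for 2532 of all 17543 genes. The maintenance methyltransferase Dnmt1 (0.80, adjusted p 0.228) and the corepressor Trim28 (0.79, adjusted p 0.366) had the largest differences. In the cold 4 lay above and 4 below (37.9% and 20.6% of all genes), and the median was -0.04. None was called, against 1.44% of all genes. An unadjusted p under 0.05 in limma was found for 5, as for 4280 of all 17477 genes. Mbd1, a methyl-CpG binding protein, was at 1.28 (adjusted p 0.0619 in limma) and Mef2c at 0.79 (adjusted p 0.148).

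Among 19 tested genes of a network of other imprinted growth genes, 2 were called in the diet comparison, both higher under HFD, against 0.0684% of all genes. Nnat, a paternally expressed gene of the endoplasmic reticulum, was at 5.27 and 3.33 FPKM under CD and at 88.7 and 70.6 FPKM under HFD, a log2 difference of 3.94 (adjusted p 0.0425 in limma). Mest, a paternally expressed gene that goes with adipose expansion, was at 0.527 and 0.568 FPKM under CD and at 8.62 and 7.36 FPKM under HFD, a log2 difference of 2.54 (adjusted p 0.0425). Of the list, 10 lay above and 2 below in both HFD libraries (39.9% and 5.8% of all genes). The median was 0.33, beside 0.18 over all genes tested and 0.29 over those averaging 1 FPKM or more. The call of Nnat was lost in 7 of 16 alternative fits and that of Mest in 6, quantile normalization among them (adjusted p 0.147 for both). In the cold none was called, against 1.44% of all genes. An unadjusted p under 0.05 in limma was found for 8, as for 4280 of all 17477 genes. Of the list, 8 lay above and 6 below (37.9% and 20.6% of all genes), and the median was 0.06. H19 (2.88, adjusted p 0.0632 in limma) and Nnat (-1.85, adjusted p 0.0517) had the largest differences. The differences of Meg3, Rian and Mirg between the diets were thus smaller than those of Nnat and Mest, a comparison of size that was not tested.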

How the data were processed

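Total RNA of BAT was depleted of ribosomal RNA, made into directional libraries and sequenced as paired ends. Per the study's methods the authors mapped reads to GRCm38 with Tophat2 2.0.10 and Ensembl genes and quantified them with Cufflinks (2.2.1 in the submitters' processing notes). The deposited values are FPKM per gene and library, without pooling. Total counts were not used here, so the depth is unknown beyond the step of low values. From there, log2(FPKM + 1) was fitted with limma 3.58.1 in R 4.3.3 (trended empirical Bayes, two-sided), separately for 4 °C against 22 °C and HFD against CD, over genes with at least 0.1 FPKM in 2 or more of the 4 libraries, without X, Y and mitochondrial genes. The script was tested on simulated data. Names came from GENCODE M21 (GRCm38), in which 49109 identifiers matched. The members and gene lists were chosen with earlier results of these data known. Named were all members and domain genes, called list genes or otherwise the 2 with the largest difference, and the 5 genes most like Meg3 and Rian by Pearson's r. Alternatives covered the pseudocount, filter, scaling, covariates, pooled fits and each library left out. The differences within a library type were added after seeing the data. Some marker genes are not reported here.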

Additional observations from a re-analysis of the deposited data

How the results depend on the processing

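Over the alternatives, the Meg3, Rian and Mirg differences between HFD and CD kept their sign and ranged from 0.856 to 1.82, from 0.595 to 1.61 and from 0.367 to 1.93 on the log2 scale. With library type as a covariate Meg3 (1.21) and Rian (1.22) passed the threshold, 2 of the 5 genes, where 745 of all 17543 genes did. Without CD replicate 6, which leaves 1 CD library, the difference of Rian was 1.61. For Dlk1 the sign turned with median centring (-0.0304), with the muscle covariate (-0.0739) and without HFD replicate 6 (-0.0453). For Rtl1 it turned with median centring (-0.268), which subtracts a library constant from values near 0. Leaving out 1 library gave diet differences of -0.0453 to 0.693 for Dlk1, 1.06 to 1.36 for Meg3, 0.821 to 1.61 for Rian, 0.546 to 0.896 for Mirg and, for the CD libraries alone, 0.0647 to 0.108 for Rtl1, which failed the filter without either HFD library. It gave cold differences of -0.202 to 0.00827 for Dlk1, -0.442 to -0.0999 for Meg3, -0.0581 to 0.0281 for Rian and -0.159 to 0.118 for Mirg. The cold sign turned with the muscle covariate for Dlk1 (0.284), Rian (0.580) and Mirg (0.0134), and without 22 °C replicate 4 for Dlk1 (0.00827), Mirg (0.118) and Rian (0.0118), as for Rian without 4 °C replicate 11 (0.0281). Within the library pair with little Gm10800 it turned for Dlk1 (0.0332), Rian (0.0549) and Mirg (0.112). Rtl1, not tested in the cold, was at -0.00459 without a filter. The cause was not tested. Calls over all genes ran from 0 to 920 in the cold (252 as reported) and from 0 to 745 for the diet (12 as reported), with 0 in both for the fits without trend and without a filter. Leaving out 1 library gave 1 to 767 calls in the cold, with 1 without 4 °C replicate 2, and 98 to 726 for the diet. Of 16 alternatives, 7 lost the diet call of Nnat, 6 that of Mest and 8 the cold call of S100b, and none turned the sign. Pairing by replicate number was not possible because the 22 °C and 4 °C groups share no such number and the CD and HFD groups share only 1. Library type, read from the data, is no replicate number and was fitted as a covariate. With 2 libraries a group and a depth known only through the step of low values, a missed threshold does not show equal levels.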
